A study of Mus musculus with 4 samples.

Results

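A set of 10 genes of the DNA methylation system was followed through mouse blastocysts: those for the methyltransferases Dnmt1, Dnmt3a and Dnmt3b, their cofactors Dnmt3l and Uhrf1, the dioxygenases Tet1, Tet2 and Tet3, and the imprint protectors Zfp57 and Trim28. They were chosen by name, as the rows whose identifier equals 1 of these 10 symbols, and all 10 were found among the 23235 gene symbols of each library. Embryos made by in vitro fertilization (IVF) were compared with embryos made by somatic cell nuclear transfer (SCNT). Of the 10 genes, 9 had levels high enough for the test, and none of the 9 passed it. The libraries of the groups did not overlap for Dnmt1 and Tet1, higher in SCNT, and for Tet2 and the untested Tet3, lower in SCNT. Over all tested genes 18.3% were higher and 15.1% lower in the same way. The estimates for the 9 tested genes lay between -0.33 and 0.21 on the log2 scale.

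Early blastocysts were lysed 96 hours after fertilization or activation, 6 pooled embryos per library, and each group had 2 libraries. IVF embryos came from oocytes carrying an Xist knockout on a 129S1/Svj background and wild-type CAST/EiJ sperm. For SCNT, in which a somatic nucleus replaces that of an oocyte, the donor nuclei came from fibroblasts of Xist heterozygous embryos with 129S1/SvImj mothers and CAST/EiJ fathers, and the recipient oocytes came from B6D2F1/J (BDF1) mice. The knockout allele was thus in the background of both groups, while the oocyte's strain differed between them. The headers of the SCNT files name Kdm4d, a gene for a histone demethylase; the labels mention no such treatment. The title of the series concerns imprinting by H3K27me3, a repressive histone mark, and the genes described here serve the other kind of imprint, that held by DNA methylation.

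In mammals the methyl mark sits on the cytosine of CG dinucleotides. Dnmt1 copies it onto the new strand at replication, Uhrf1 brings Dnmt1 to half-methylated sites, Dnmt3a and Dnmt3b set new marks, and Dnmt3l, which has no catalytic activity, stimulates both. Tet enzymes oxidise methylcytosine, which opens the way to its removal. Before implantation most of the genome loses the mark, while imprinted control regions keep it through Zfp57, a zinc finger protein that binds them when methylated, and Trim28, the corepressor it recruits.

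The promoters of these genes differ in the very dinucleotide on which their products act. RefSeq (GRCm38.p6) gave starts for all 10 genes, 19 in all, and the 250 bases before each start were searched. These windows held a median of 15 CpG, from 2 to 51, against a median of 6 over all 32851 such windows. The Tet2 window stood at the top with 51 CpG, more than in 99.9% of windows, and carried the unit CCGCGAGGGAGC 5 times, 1 of 3 strings of 12 letters with that many copies in it, the most of any. No other of the 32851 windows held that unit on either strand. The window of Dnmt3b, the most abundant of the 3 methyltransferase genes, held 21 CpG, and that of Trim28, the most abundant of the 10, held 17. They are shown here 5′ to 3′ with each CG in capitals, as the member with the lowest estimate in SCNT and the leading genes of 2 roles. The Tet2 window is at chr3:133544391-133544640 on the minus strand, that of Dnmt3b at chr2:153649199-153649448 and that of Trim28 at chr7:13023902-13024151, both on the plus strand. None of the 3 overlaps an annotated exon in GENCODE M21.
Tet2: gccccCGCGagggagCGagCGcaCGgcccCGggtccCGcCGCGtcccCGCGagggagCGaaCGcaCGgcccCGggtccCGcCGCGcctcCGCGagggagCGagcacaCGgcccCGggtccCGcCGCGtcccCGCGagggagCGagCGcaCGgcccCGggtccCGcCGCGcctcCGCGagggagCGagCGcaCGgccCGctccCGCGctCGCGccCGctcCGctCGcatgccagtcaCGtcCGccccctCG
Dnmt3b: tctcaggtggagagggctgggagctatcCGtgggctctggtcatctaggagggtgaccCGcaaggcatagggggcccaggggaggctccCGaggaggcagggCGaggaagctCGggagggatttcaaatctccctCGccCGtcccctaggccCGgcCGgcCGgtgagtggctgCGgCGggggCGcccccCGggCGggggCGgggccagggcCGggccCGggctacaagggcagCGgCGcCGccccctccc
Trim28: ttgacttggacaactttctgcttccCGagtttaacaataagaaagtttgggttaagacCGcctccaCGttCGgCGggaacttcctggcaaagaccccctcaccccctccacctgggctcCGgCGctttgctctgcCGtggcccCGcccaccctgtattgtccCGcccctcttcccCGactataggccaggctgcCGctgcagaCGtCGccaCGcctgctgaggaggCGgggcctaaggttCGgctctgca

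The maintenance pair shared a motif, before 1 of 3 starts of Dnmt1 and 1 of 2 starts of Uhrf1. Of 3 spellings of the E2F type, a factor family of the cell cycle (TTTGGCGC, TTTCGCGC and TTTCCCGC, both strands), TTTCGCGC was found before 1 start of Dnmt1 and 1 start of Uhrf1, and none of the 3 before the other 8 genes. Over all windows 1.53% held 1 of the spellings. That share was not matched for CpG, of which the Dnmt1 window held 26 and the Uhrf1 window 30, against a median of 6. The match begins 219 bases before that Dnmt1 start, at chr9:20952824-20952853 (minus strand), inside an exon of 2 other annotated transcripts, and 185 bases before that Uhrf1 start, at chr17:56304117-56304146 (plus strand), outside any exon. Capitals mark the motif, which reads in reverse complement in Dnmt1.
Dnmt1: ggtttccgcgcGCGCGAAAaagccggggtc
Uhrf1: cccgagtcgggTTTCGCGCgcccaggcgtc
The GC box GGGCGG (both strands) was found before 12 of the 19 starts, against 32.7% of all windows, a share also not matched for CpG. By gene, it was found before at least 1 start of 9 of the 10 genes, Zfp57 being the exception. Genes with several starts had more chances. A match is a string of letters and not a measured binding site.

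All values below are in FPKM, fragments per kilobase of transcript scaled to the mapped total, a unit inferred from the tools named by the submitters. FPKM summed to between 933167 and 985197 per library. The absolute depth is unknown, and the number of genes listed at exactly 0 was 6505 and 6527 in the libraries numbered 1 and 5212 and 5716 in those numbered 2. Differences are therefore also given within each number, with pair 1 for SCNT library 1 less IVF library 1 and pair 2 for the libraries numbered 2. The labels do not say whether the libraries of a group had separate parents or dates, and p-values measure only their spread, which may be technical. In pooled whole embryos fewer cells of a type and less RNA per cell cannot be told apart. Markers of the 3 blastocyst lineages were present, with summed FPKM of 3838 to 4649 in IVF and 4232 to 6360 in SCNT for 15 trophectoderm genes, 599 to 632 and 689 to 727 for 14 genes of inner cell mass and epiblast, and 322 to 429 and 390 to 446 for 13 of primitive endoderm. Summed fibroblast markers, 13 genes, reached 5.99 to 8.46 FPKM in IVF and 6.22 to 12.5 in SCNT, with Twist2 and S100a4 at 0 throughout. Oocyte markers, 14 genes, reached 8.12 to 10.3 and 7.79 to 8.14 FPKM. Cumulus and granulosa markers, 11 genes, summed to 6.35 to 9.65 FPKM in IVF and 10.2 to 12.3 in SCNT, with Ptx3, Amh and Cyp19a1 at 0. That sum was mostly Amhr2, at 7.36 and 4.57 FPKM in IVF against 8.3 and 11.2 FPKM in SCNT. The only other tested gene of that list, Inhbb, had a lower estimate, at 1.87 and 1.07 against 1.6 and 0.48 FPKM. The part of all these markers in the results was not tested.

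By level, Trim28 led at a mean of 235 FPKM over the 4 libraries, above 97.4% of all genes in IVF. It was followed by Dnmt3l (69.2), Dnmt3b (63.5), Uhrf1 (41.4), Zfp57 (25.6), Tet2 (19.5), Dnmt1 (14.9), Dnmt3a (10.02), Tet1 (8.27) and Tet3 (0.934). FPKM is per length, so these levels can be set side by side. Library ranges did not overlap between Trim28 and Dnmt3l, between Dnmt1 and Dnmt3a, or between Tet1 and Tet3, while all other neighbours in this order overlapped. The set thus spans from an abundant corepressor to a Tet gene near the lower limit of the test.

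**Figure D1:**
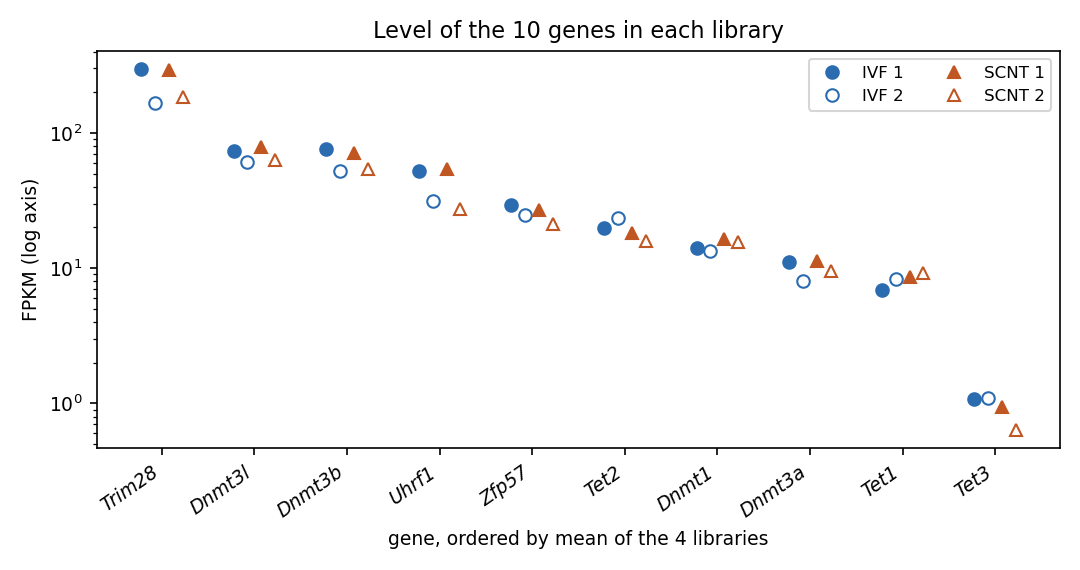
FPKM (log axis) of each of the 10 genes in the 4 libraries, with circles for IVF, triangles for SCNT, filled symbols for library 1 and open symbols for library 2. Trim28 lies between 166 and 298 FPKM and Tet3 between 0.637 and 1.10 FPKM, and for 7 of the 10 genes the open symbol is below the filled one in both groups.

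Across all 11039 genes with a mean of at least 1 FPKM, 14 were called by limma at an adjusted p under 0.05, 8 higher and 6 lower in SCNT, which is 0.127%. Of the 10 genes 9 were tested, all with means above that minimum in both groups, and 0 were called. With limma 0 of the 9 had an unadjusted p under 0.05, against 7.09% of all tested genes. Their median difference was 0.06, beside 0.01 over all tested genes. The libraries of the groups did not overlap for 2 of the 9 that were higher in SCNT, Dnmt1 and Tet1, against 18.3% of tested genes, and for 1 that was lower, Tet2, against 15.1%. These shares are near the background. The smallest difference called among all genes was 3.34 on the log2 scale, and the 95% intervals given below bound the differences of single genes.

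**Figure D2:**
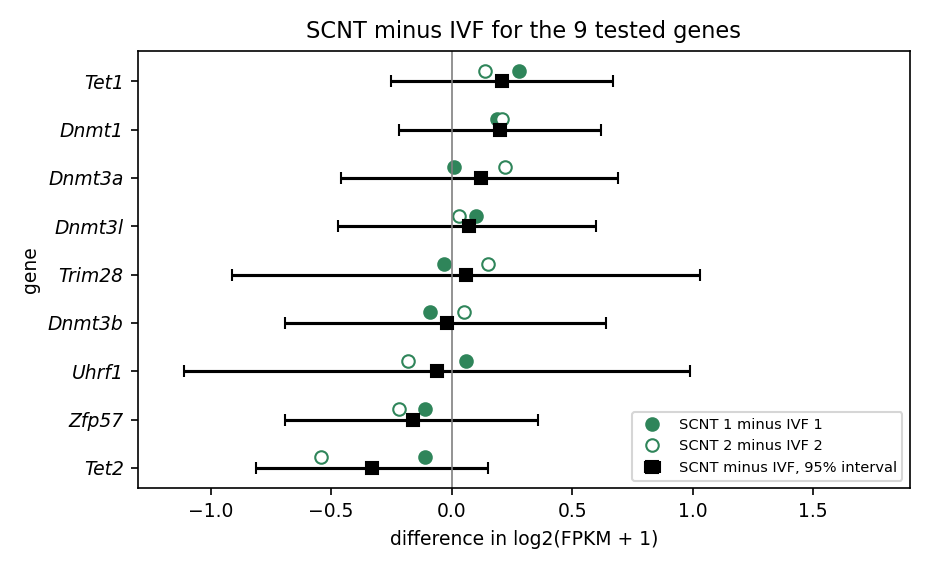
Difference SCNT minus IVF in log2(FPKM + 1) for the 9 tested genes, with squares for the estimate, bars for the 95% interval from limma, filled circles for pair 1 and open circles for pair 2. All 9 intervals include 0, from the narrow one of Dnmt1 (-0.22 to 0.62) to the widest, that of Uhrf1 (-1.11 to 0.99).

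Dnmt1, the maintenance methyltransferase gene on chromosome 9, was listed at 14.2 and 13.5 FPKM in IVF libraries 1 and 2 against 16.4 and 15.7 FPKM in SCNT libraries 1 and 2. Both SCNT libraries were thus above both IVF libraries, by a ratio of means of 1.16. It was also steady within a group, with SD of 0.537 and 0.481 FPKM. The difference was 0.20 ± 0.16 (SE) on the log2(FPKM + 1) scale, 0.19 in pair 1 and 0.21 in pair 2, and did not pass (limma adjusted p = 0.981). Its 95% interval ran from -0.22 to 0.62, and so left out a log2 change of 1. The value is for the gene as a whole and does not separate the oocyte form from the somatic form.

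Uhrf1, whose product leads Dnmt1 to half-methylated DNA and whose gene is on chromosome 17, showed a different picture. It was listed at 52.4 and 31.3 FPKM in IVF against 54.5 and 27.5 FPKM in SCNT. The libraries numbered 1 were high and those numbered 2 low in both groups, by ratios of 1.68 and 1.98, and the group means of 41.8 FPKM in IVF and 41.0 FPKM in SCNT lay within that spread. The difference was -0.06 ± 0.41 (SE; limma adjusted p = 0.9996), made up of 0.06 in pair 1 and -0.18 in pair 2. It turned to 0.30 without IVF library 1 and to 0.42 without SCNT library 2. Set against Dnmt1 inside each library, Uhrf1 stood at 3.69 and 2.32 in IVF and at 3.33 and 1.75 in SCNT, so these ratios overlapped as well.

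The genes for setting new marks were dominated by Dnmt3b and Dnmt3l. Dnmt3b on chromosome 2 was listed at 75.9 and 52.7 FPKM in IVF against 71.1 and 54.5 FPKM in SCNT, and the SCNT values lay inside the IVF range. Dnmt3l on chromosome 10, the catalytically inactive partner, was listed at 73.4 and 61.5 FPKM in IVF against 78.7 and 63.0 FPKM in SCNT, with overlapping groups. Dnmt3a on chromosome 12 was far lower, at 11.2 and 8.02 FPKM in IVF against 11.3 and 9.51 FPKM in SCNT. All 3 were higher in the libraries numbered 1 than in those numbered 2. Log2 differences were -0.02 ± 0.26 (SE) for Dnmt3b, 0.07 ± 0.21 for Dnmt3l and 0.12 ± 0.22 for Dnmt3a, each with a limma adjusted p of 0.9996. The 95% intervals ran from -0.69 to 0.64, from -0.47 to 0.60 and from -0.46 to 0.69, and so left out a log2 change of 1. The sign of each depended on single libraries. That of Dnmt3b turned to 0.24 without IVF library 1 and to 0.17 without SCNT library 2, that of Dnmt3l to -0.06 without IVF library 2 and to -0.09 without SCNT library 1, and that of Dnmt3a to -0.10 without IVF library 2.

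Inside a library the proportions of these genes were as follows. Dnmt3b stood to Dnmt3a at 6.76 and 6.57 in IVF and at 6.28 and 5.73 in SCNT, and Dnmt3l to Dnmt3a at 6.54 and 7.67 in IVF and at 6.96 and 6.63 in SCNT. The Dnmt3b ratio was lower in both SCNT libraries, with a log2 difference of -0.15 and a pooled SD of 0.07 (-0.08 without SCNT library 2 and -0.22 without SCNT library 1), and the Dnmt3l ratio overlapped. Such ratios do not depend on scaling between libraries. Dnmt3b made up 68.4% to 74.9% of the summed FPKM of the 3 methyltransferase genes in the 4 libraries, Dnmt1 14.03% to 19.7% and Dnmt3a 10.8% to 11.9%. For each of 7 ratios an exact two-sided permutation test over the 4 libraries was run, which cannot go below p = 0.333 with 2 against 2. The Dnmt3b to Dnmt3a ratio reached that smallest value (Benjamini-Hochberg adjusted over the 7 ratios, 0.777).

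None of the Tet genes passed a test. The libraries of the groups did not overlap for any of the 3, as also for 18.3% of all tested genes that were higher in SCNT and 15.1% that were lower. Tet2 on chromosome 3 was the main member at this stage, listed at 19.9 and 23.7 FPKM in IVF against 18.3 and 15.9 FPKM in SCNT. Both SCNT libraries were below both IVF libraries, with a ratio of means of 0.786. Its difference of -0.33 ± 0.19 (SE) was the one farthest from 0 among the tested genes of the set (limma adjusted p = 0.891), with -0.11 in pair 1, -0.54 in pair 2 and a 95% interval of -0.81 to 0.15. Of all tested genes 22% had a larger absolute difference. It was -0.21 without IVF library 2 and -0.45 without IVF library 1.

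Tet1 on chromosome 10 went the other way in its estimate. It was listed at 6.91 and 8.30 FPKM in IVF against 8.62 and 9.25 FPKM in SCNT, so that the SCNT libraries were the higher ones by a narrow gap. The difference was 0.21 ± 0.18 (SE; limma adjusted p = 0.986), with 0.28 in pair 1, 0.14 in pair 2 and an interval of -0.25 to 0.67. Without IVF library 1 it was 0.09, and without IVF library 2 it was 0.33. Tet3 on chromosome 6, the form that is abundant in the oocyte and zygote, was low, at 1.07 and 1.10 FPKM in IVF against 0.935 and 0.637 FPKM in SCNT. Its mean of 0.934 FPKM was under the minimum for the test. Without that minimum its difference was -0.23 ± 0.15 (SE; limma adjusted p = 0.918), or -0.10 in pair 1 and -0.36 in pair 2. It was -0.11 without SCNT library 2 and -0.35 without SCNT library 1. Because a pseudocount of 1 is as large as its level, this value moved to -0.44 with a pseudocount of 0.1 and to -0.07 with one of 5.

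The ratio of Tet1 to Tet2 inside each library had to separate the groups, as Tet1 was higher and Tet2 lower in both SCNT libraries. Tet1 stood to Tet2 at 0.347 and 0.351 in IVF and at 0.471 and 0.581 in SCNT. The IVF libraries were nearly equal and both SCNT libraries were higher, by 0.58 on the log2 scale with a pooled SD of 0.15, 0.44 in pair 1 and 0.73 in pair 2. Tet1 made up 24.8% and 25.1% of the summed Tet FPKM in IVF and 30.95% and 35.8% in SCNT, and Tet2 71.4% and 71.6% against 65.7% and 61.7%. The exact permutation p of 0.333 is the smallest that 4 libraries allow (adjusted over the 7 ratios, 0.777). It was fixed by that separation and adds no evidence beyond the 2 single genes. Tet3 stood to Tet1 at 0.155 and 0.132 in IVF and at 0.108 and 0.0688 in SCNT, a difference of -0.72 with the same exact permutation p of 0.333. That difference was -0.40 without SCNT library 2, -1.05 without SCNT library 1 and -0.44 with 1 FPKM added to each gene. The separation of this ratio and its p were fixed in the same way, as Tet3 was lower and Tet1 higher in both SCNT libraries. Summed trophectoderm markers were 4649 and 3838 FPKM in IVF and 6360 and 4232 in SCNT, a sum made up mostly of the keratins Krt8 and Krt18, and the sums overlapped. Counted gene by gene, 6 of the 15 trophectoderm markers were higher in both SCNT libraries and 0 were lower in both, against 18.3% and 15.1% of all tested genes, with a median log2 difference of 0.40 beside 0.01. These 6 were Cdx2, Eomes, Elf5, Krt7, Krt19 and Plac1, all with an unadjusted limma p under 0.05 and none called. By estimate, 11 of the 15 were higher and 4 lower in SCNT, the 4 being Tfap2c, Tead4, Dab2 and Hand1. Of 11 tested primitive endoderm markers 6 were higher in both SCNT libraries and 0 lower, with a median of 0.30. Of 13 tested markers of inner cell mass and epiblast 5 were higher in both and 0 lower, with a median of 0.05, and their sum was 599 and 632 FPKM in IVF against 689 and 727 FPKM in SCNT. The part of these lineage markers in the Tet ratios was not tested.

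**Figure D3:**
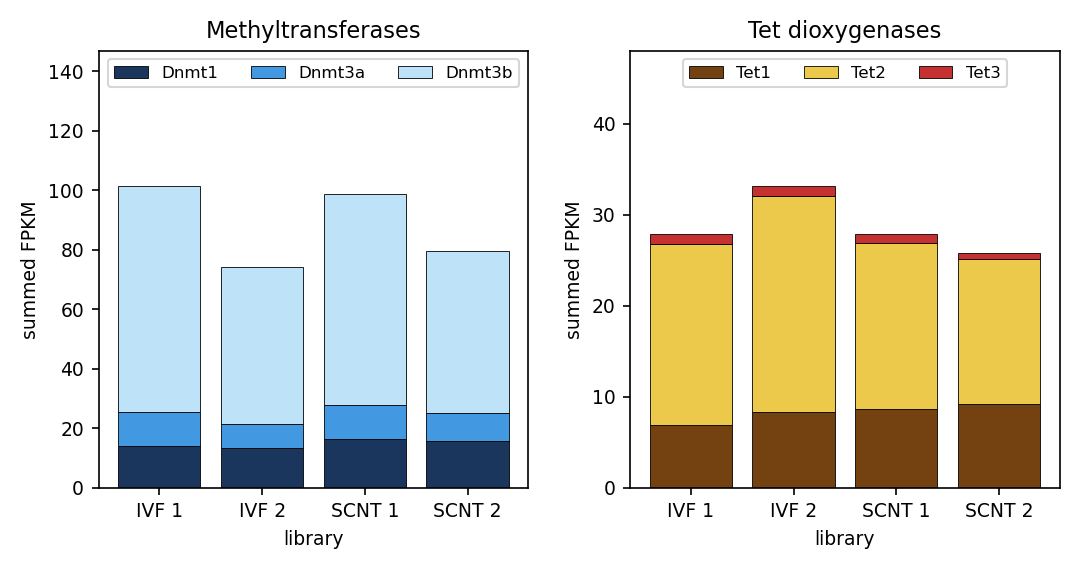
Summed FPKM of the 3 methyltransferase genes (left) and of the 3 Tet genes (right) in each library, stacked by gene from 0. The methyltransferase sum is 101 and 74.1 FPKM in IVF and 98.8 and 79.7 in SCNT, and the Tet1 block makes up 24.8% and 25.1% of the Tet sum in IVF against 30.95% and 35.8% in SCNT.

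Transcripts of the writers exceeded those of the erasers in every library. The sum of Dnmt1, Dnmt3a and Dnmt3b was 101 and 74.1 FPKM in IVF and 98.8 and 79.7 FPKM in SCNT, against a Tet sum of 27.9 and 33.1 FPKM in IVF and 27.9 and 25.8 FPKM in SCNT. Their ratio was 3.63 and 2.24 in IVF and 3.55 and 3.08 in SCNT, so both SCNT values lay inside the IVF range (exact permutation p = 1).

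Of the imprint protectors, Zfp57 on chromosome 17 was listed at 29.2 and 24.9 FPKM in IVF against 27.0 and 21.3 FPKM in SCNT. The groups overlapped, and the difference was -0.16 ± 0.20 (SE; limma adjusted p = 0.9996), with -0.11 in pair 1, -0.22 in pair 2 and an interval of -0.69 to 0.36. It came to 0.0027 without SCNT library 2. Trim28 on chromosome 7 was listed at 298 and 166 FPKM in IVF against 291 and 184 FPKM in SCNT. As for Uhrf1, the libraries numbered 1 were the high ones, by ratios of 1.80 and 1.58, and the difference between groups of 0.06 ± 0.38 (SE; limma adjusted p = 0.9996) was small beside that spread, with an interval of -0.91 to 1.03. It turned to -0.36 without IVF library 2 and to -0.27 without SCNT library 1. Zfp57 stood to Trim28 at 0.0979 and 0.150 in IVF and at 0.0927 and 0.115 in SCNT, with overlapping groups (exact permutation p = 0.667).

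The libraries of 1 group also differed from each other. In 7 of the 10 genes, Dnmt1, Dnmt3a, Dnmt3b, Dnmt3l, Uhrf1, Trim28 and Zfp57, library 2 was below library 1 in both IVF and SCNT, Tet1 was above in both, and Tet2 and Tet3 differed in sign between the groups. Over all tested genes 39.6% were lower in library 2 in both groups and 33.3% higher in both, with medians of -0.04 in IVF and -0.02 in SCNT on the log2 scale. The medians of the 10 genes were -0.24 and -0.28. For 6 of the 10 the smaller of these 2 within-group differences exceeded the difference between groups, near the 49% found over all tested genes. The labels do not say what the library number stands for.

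**Figure D4:**
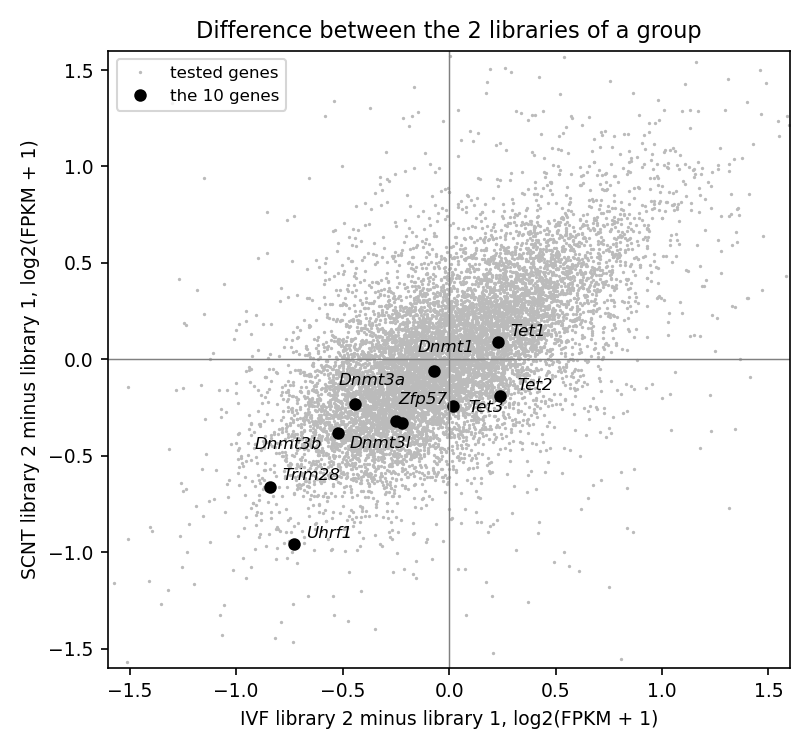
Difference between library 2 and library 1 in log2(FPKM + 1), in IVF on the horizontal axis and in SCNT on the vertical axis, for the 10 genes (black) and the 11039 tested genes (grey; 210 lie beyond the axis limit of 1.6). Uhrf1 (-0.73 and -0.96) and Trim28 (-0.84 and -0.66) lie farthest from the centre among the 10, and 7 of the 10 lie in the lower left field.

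The neighbours of these genes in the pathway gave no call either. In 5 lists of maintenance partners, imprint protection factors, readers of methylated DNA, demethylation partners and methyl donor enzymes, 56 of 64 genes were tested and 0 were called by limma. Of the 56, 1 had an unadjusted p under 0.05 with limma, against 7.09% of all tested genes. Both SCNT libraries were above both IVF ones for 7, against 18.3% of all tested genes, and below for 8, against 15.1%. The median difference was -0.05, beside 0.01 over all tested genes.

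Among 10 tested maintenance partners, Hells, a chromatin remodeller needed for DNA methylation, was listed at 27.5 and 20.0 FPKM in IVF against 29.0 and 19.3 FPKM in SCNT. Usp7, a deubiquitinase bound to Dnmt1 and Uhrf1, was listed at 42.5 and 33.1 FPKM in IVF against 42.7 and 34.4 FPKM in SCNT. Both followed the library number and overlapped between groups. Cdca7, a partner of Hells, was lower in both SCNT libraries, at 18.8 and 14.3 FPKM in IVF against 13.3 and 11.8 FPKM in SCNT (log2 difference -0.36 ± 0.21 (SE), limma adjusted p = 0.887). Uhrf2, the paralog of Uhrf1, was low at 2.42 to 3.53 FPKM in all 4 libraries. The acetyltransferase gene Naa10 had a mean difference of 0.16 and the deacetylase genes Hdac1 and Hdac2 of -0.11 and -0.18, and none of these passed.

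Of 16 imprint protection factors, 12 had lower and 4 higher estimates. Their median difference was small, at -0.06 beside 0.01 over all tested genes. With limma 0 of the 16 had an unadjusted p under 0.05, against 7.09% of all tested genes. Dppa3, which shields maternal chromatin from demethylation in the zygote, was the most abundant gene named here, at 3890 and 3205 FPKM in IVF against 3446 and 3150 FPKM in SCNT, with overlapping groups. Zfp445, another zinc finger gene that maintains imprints through Trim28, was listed at 5.51 and 5.85 FPKM in IVF against 4.85 and 4.25 FPKM in SCNT. Its groups did not overlap, and its difference of -0.27 ± 0.18 (SE) did not pass (limma adjusted p = 0.907). The chromatin remodeller gene Atrx, at 18.2 and 23.4 against 18.0 and 16.9 FPKM, was also lower in both SCNT libraries, whereas Ctcf, the insulator protein gene, overlapped at 30.9 and 22 against 23.5 and 23.3 FPKM. Arid4b and Smchd1 differed by -0.28 and 0.22 and did not pass.

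Readers of methylated DNA passed the minimum in 4 of 8 cases, Mbd1, Mbd2, Mbd3 and Mbd4, all overlapping between groups with differences between -0.14 and 0.15. Tdg, the glycosylase that removes the oxidised bases made by Tet enzymes, had 13.9 FPKM on average in IVF, with 8.73 FPKM in library 2, against 12.8 and 10.4 FPKM in SCNT, and the SCNT values lay inside the IVF range. Apex1, the endonuclease of the next repair step, was higher in both SCNT libraries, at 32.7 and 40.1 FPKM against 25.1 and 27.2 FPKM (log2 difference 0.45 ± 0.19 (SE), limma adjusted p = 0.751). Neil1, a further glycosylase gene, was higher in the same way, at 11.3 and 12 against 9.06 and 8.96 FPKM. Gadd45b, at 8.68 and 11.1 FPKM in SCNT, exceeded IVF library 1 (8.62 FPKM) by a narrow gap, and Idh1, which makes the Tet cosubstrate alpha-ketoglutarate, differed by -0.66 with overlapping groups. Of the 14 tested demethylation partners 3 were higher in both SCNT libraries, against 18.3% of all tested genes. Xrcc1 and Gadd45a, 2 of the 14, were lower in both, against 15.1%. None of the 14 passed.

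Of the 12 methyl donor enzymes, all tested, Mthfd2, a mitochondrial folate enzyme gene, was the 1 with an unadjusted limma p under 0.05. It was listed at 17.3 and 12.2 FPKM in IVF against 49 and 22.2 FPKM in SCNT, both SCNT libraries being higher, with a difference of 1.13 ± 0.41 (SE; limma adjusted p = 0.645). Ahcy, which clears the product that inhibits methyltransferases, was listed at 117 and 61.3 FPKM in IVF against 74.0 and 47.4 FPKM in SCNT, with overlapping groups and a difference of -0.51 ± 0.39. Gnmt and Amd1, which also consume the methyl donor, differed by -0.30 and -0.21 and did not pass. Gnmt, at a mean of 0.86 FPKM in SCNT and 1.31 FPKM in IVF, was tested through its IVF level alone. Its mean thus had to be lower in SCNT.

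The last list was of germline genes, some of which are known to be silenced by promoter methylation in somatic cells. It held 16 genes and was drawn up with earlier results of these libraries known. Its counts are therefore a description, and setting them beside all tested genes is not a test. Of its 13 tested members 0 were called by limma, 7 had an unadjusted p under 0.05, all with lower estimates in SCNT, and 8 had both SCNT libraries below both IVF ones. Of these, Dazl, Asz1 and Slc25a31 had SCNT means under 1 FPKM and were tested through their IVF level alone. Their means thus had to be lower in SCNT. Of the other 10 tested genes 5 had an unadjusted p under 0.05 with limma, against 7.09% of all tested genes, and 5 were lower in both SCNT libraries, against 15.1%. Their median difference was -0.60, with -0.57 in pair 1 and -0.75 in pair 2, beside 0.01 over all tested genes. Asz1, a factor of the piRNA pathway, was listed at 5.32 and 5.85 FPKM in IVF against 1.11 and 0.376 FPKM in SCNT. Mael, of the same pathway, was listed at 6.34 and 7.18 FPKM in IVF against 2.22 and 1.81 FPKM in SCNT. Dazl, an RNA-binding germ cell factor, was listed at 2.22 and 2.56 FPKM in IVF against 0.456 and 0.380 FPKM in SCNT. Tex19.1, a germ cell and placenta gene, was listed at 49.6 and 59.3 FPKM in IVF against 25 and 33.8 FPKM in SCNT. These 4 had limma adjusted p of 0.198, 0.203, 0.231 and 0.469. Others did not separate, among them Ddx4, Sycp3 and Rpl10l. Oocyte markers, in which such genes could also be read, summed to 8.12 to 10.3 FPKM in IVF and 7.79 to 8.14 FPKM in SCNT, and their part in these values was not tested.

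The Asz1 promoter is shown as an example from the germline list, with each CG in capitals. Its 250 bases before the RefSeq start, at chr6:18109062-18109311 (minus strand, GRCm38.p6), hold 15 CpG, more than in 72.7% of windows. The 20 windows of the 16 germline genes held a median of 16.5 CpG, against 6 over all windows. No methylation was measured in these libraries.
Asz1: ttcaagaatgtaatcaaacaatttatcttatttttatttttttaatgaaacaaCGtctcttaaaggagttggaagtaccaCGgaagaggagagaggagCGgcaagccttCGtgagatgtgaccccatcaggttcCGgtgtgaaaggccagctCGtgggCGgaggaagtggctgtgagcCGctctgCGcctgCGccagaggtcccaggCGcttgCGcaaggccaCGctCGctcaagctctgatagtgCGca

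**Figure D5:**
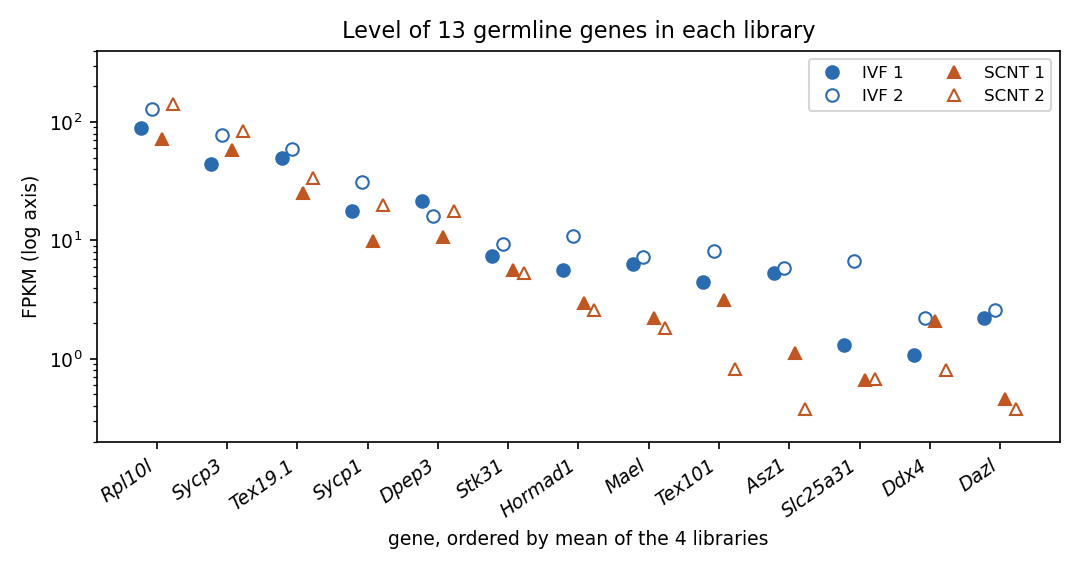
FPKM (log axis) of the 13 tested germline genes in the 4 libraries, with circles for IVF, triangles for SCNT, filled symbols for library 1 and open symbols for library 2. Both SCNT symbols are below both IVF symbols in 8 of the 13, while the groups overlap for Ddx4, Sycp1, Sycp3, Dpep3 and Rpl10l. The 8 include Dazl, Asz1 and Slc25a31, which were tested through their IVF level alone, so that their means had to be lower in SCNT. Of the other 10 genes 5 are lower in both SCNT libraries, against 15.1% of all tested genes. The list was drawn up with earlier results of these libraries known, so this comparison is not a test.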

How the data were processed

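RNA was measured in 4 libraries of early mouse blastocysts, grouped by title. Per the labels' protocols, whole embryos were lysed and their cDNA amplified (SMARTer Ultra Low Input), sheared and made into libraries; amplification from few cells adds noise. The submitters' processing notes name TopHat2 (2.0.14), Bowtie2 (2.1.0), Cufflinks (2.2.1) and the mm9 build. The deposited values were read as FPKM, a unit inferred from Cufflinks and from the values. No source used here gives the annotation, the use of strand or any scaling.

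Genes with a mean of at least 1 FPKM, 11039 in all, entered limma (3.58.1, R 4.3.3) as log2(FPKM + 1), with group as the only term, a mean-variance trend, Benjamini-Hochberg adjustment over all of them and a threshold of 0.05. The code was tested on simulated data. Ratios were tested by exact permutation. No count test was run. Fragment worth could be compared between IVF 1 and SCNT 1, where 11.4% of 3540 low genes gathered at a ratio of 0.965, but not for the libraries numbered 2 (1.92% and 2.48%).

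The members and lists were chosen with earlier results of these data known. All members are named, then of each wider list up to 4 genes with the smallest unadjusted p, and Dppa3, Zfp445, Ctcf, Hells, Usp7, Uhrf2 and Tdg. Slc25a31, Ddx4, Sycp1, Sycp3, Dpep3, Rpl10l, Xrcc1, Gadd45a and the trophectoderm markers were named after their values were seen. Chromosomes and promoters are from RefSeq (GRCm38.p6), by symbol. The alternatives tried are listed in the closing section.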

Additional observations from a re-analysis of the deposited data

How the results depend on the processing

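The 14 alternatives included pseudocounts of 0.1 and 5, no minimum, a minimum of 5 FPKM, and scaling to the same median or upper quartile. The others were removal of short RNA genes with rescaling, a replicate block, a robust prior, no trend, and each library left out. Where all libraries were kept, 0 of the 9 tested genes gained a call by limma, and likewise 0 genes of the 5 wider pathway lists and the germline list. The lowest adjusted p of a member there was 0.374, for Tet2 with the replicate number as a block. Tet3 could be tested by limma only with no minimum, and it was not called (adjusted p = 0.918). The number of tested members whose groups did not overlap fell from 3 to 2 with scaling to the same median. It was 4 with no minimum, and it stayed at 3 with scaling to the same upper quartile. Same-numbered libraries deviated together (correlation 0.309 over 11039 genes), but with 2 pairs and no label the numbers were not taken to pair the samples. In this balanced layout a replicate block cannot change an estimate, and it alters only the error and the p-value.

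Leaving out 1 library turned the sign of 6 of the 10 genes, whose log2 differences then ranged from -0.10 to 0.34 for Dnmt3a, from -0.28 to 0.24 for Dnmt3b, from -0.09 to 0.23 for Dnmt3l, from -0.54 to 0.42 for Uhrf1, from -0.36 to 0.48 for Trim28 and from -0.33 to 0.0027 for Zfp57, while Dnmt1, Tet1, Tet2 and Tet3 kept theirs. In the same way the log2 differences in ratio ranged from -0.22 to -0.08 for Dnmt3b to Dnmt3a, from 0.43 to 0.74 for Tet1 to Tet2, from -1.05 to -0.40 for Tet3 to Tet1 and, turning in sign, from -0.18 to 0.05 for Dnmt3l to Dnmt3a, from -0.74 to 0.19 for Uhrf1 to Dnmt1, from -0.53 to 0.08 for Zfp57 to Trim28 and from -0.14 to 0.56 for methyltransferases to Tet genes. The number of tested members whose groups did not overlap went from 3 to between 5 and 7, as fewer libraries overlap less easily, and the number of genes called over all tested genes from 14 to between 36 and 43. It was 9 with the short RNA genes removed, 11 of the 14 being such genes; the cause of the other changes was not tested. The share of all tested genes without overlap is not given here for a library left out. The counts of 5 to 7 members therefore have no background to be read against.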
